A study of Mus musculus with 2 samples.

Results

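This section describes the heat shock and unfolded protein response genes, 35 chaperones, cochaperones and stress regulators chosen by symbol from the 32285 genes in the count tables. Their levels were read in single cells of mouse kidney (scRNAseq, 3′ droplet libraries). The ischemia library came from a kidney after unilateral ischemia and 24 h of reperfusion (I/R). The labels give 27 min of ischemia, and the study's surgical methods give a slightly shorter time. The control library came from a contralateral, uninjured kidney, which is the second kidney of an operated animal and not one from an unoperated mouse. Both groups were male, wildtype C57BL/6J mice aged 19 weeks, and each group was 1 library. By the study's methods each library was 1 kidney, and whether both kidneys came from the same mouse is not stated in the sources used here. An effect of ischemia and a difference between the 2 libraries therefore cannot be told apart, no p-value is given, and all intervals below cover counting error only.

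Heat shock proteins bind unfolded proteins and keep them from clumping. In the cytosol, the Hsp70 proteins (Hspa genes) refold proteins in cycles of ATP use that J-domain proteins (Dnaj genes) start, the Hsp90 proteins mature kinases and receptors, and the small heat shock proteins (Hspb1, Hspb8 and the lens crystallin Cryab) hold damaged proteins without using ATP. The factor Hsf1 induces many of these genes after heat, oxidants or loss of ATP. In the endoplasmic reticulum (ER), Hspa5 (BiP), Hsp90b1 (GRP94), calreticulin, calnexin and the disulfide isomerases (Pdia genes) fold secreted and membrane proteins. When unfolded proteins build up there, the sensors Ire1, Perk and Atf6 start the unfolded protein response (UPR), through spliced Xbp1, through translation of Atf4 and its targets Ddit3 (CHOP) and Trib3, and through cleaved Atf6. The proximal tubule (PT) of the kidney is known for its dependence on mitochondrial ATP, and small heat shock proteins are known to hold its actin cytoskeleton during loss of ATP.

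The promoters of 6 ER members hold an ER stress element. RefSeq promoter windows (GRCm38.p6) were matched by symbol for 28 of the 35 members, as 34 windows, and the 250 bases before each start site were searched on both strands. The ER stress element ERSE, spelled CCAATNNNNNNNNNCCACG, stood in 6 windows (17.6%), those of Hspa5, Hsp90b1, Calr, Canx, Dnajc3 and Pdia6. Of all 32536 distinct promoter windows of this length, 37 (0.114%) held it. Because the members were chosen as stress response genes, this difference in share is a description and not independent support. The sites are shown because several of these ER chaperones differ in opposite directions between the libraries in 2 cell populations below. Capitals mark the ERSE, which reads from the opposite strand in the sites shown for Calr and Hsp90b1. The Hsp90b1 window held 2 ERSEs, and the one nearer to the start is shown, while the other reads forward.
Hspa5, chr2:34772005-34772063, plus strand, 47 bases before the start: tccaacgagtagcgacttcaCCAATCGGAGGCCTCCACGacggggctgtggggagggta
Hsp90b1, chr10:86705513-86705571, minus strand, 89 bases before the start: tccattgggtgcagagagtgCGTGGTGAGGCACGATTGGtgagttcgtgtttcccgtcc
Calr, chr8:84847055-84847113, minus strand, 144 bases before the start: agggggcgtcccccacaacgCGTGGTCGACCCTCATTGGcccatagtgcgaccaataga
Canx, chr11:50325780-50325838, minus strand, 127 bases before the start: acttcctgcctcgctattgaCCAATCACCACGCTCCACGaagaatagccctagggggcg
Dnajc3, chr14:118937807-118937865, plus strand, 87 bases before the start: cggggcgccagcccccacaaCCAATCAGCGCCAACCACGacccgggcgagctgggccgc
Pdia6, chr12:17266471-17266529, plus strand, 80 bases before the start: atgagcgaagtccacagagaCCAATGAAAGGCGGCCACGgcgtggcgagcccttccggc

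The shorter ERSE-II, ATTGGNCCACG, was found in the Herpud1 window and in 10 windows in all (0.0307%). The Herpud1 window also held a CCAAT-enhancer-binding protein and ATF response element (CARE), TGATGNAA, which 3.40% of all windows held, and Hspa5 held the UPR element TGACGTG, which 1.66% held. A full heat shock element (HSE), GAANNTTCNNGAA or TTCNNGAANNTTC, stood in 2 member windows, those of Hspd1 and Hspe1, and in 0.470% of all windows. These are the same bases on chromosome 1, read from opposite strands, because both mitochondrial chaperone genes start from 1 shared region and point away from each other. Capitals mark the HSE letters below, 2 overlapping matches that together cover the stretch, and the ERSE-II in Herpud1.
Hspd1, chr1:55088039-55088096, minus strand, 127 bases before the start: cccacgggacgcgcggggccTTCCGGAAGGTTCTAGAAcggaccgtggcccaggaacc
Hspe1, chr1:55088039-55088096, plus strand, 72 bases before the start: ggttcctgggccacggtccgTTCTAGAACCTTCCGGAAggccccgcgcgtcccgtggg
Herpud1, chr8:94386357-94386407, plus strand, 42 bases before the start: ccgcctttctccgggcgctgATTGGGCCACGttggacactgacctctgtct

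The windows of Hspa1a and Hspa1b are shown because these neighbouring genes on chromosome 17 are near copies of each other. Their 250 bases agreed at 247 positions, and the 3 differences are in capitals. Reads that fit both copies could be missing from these counts, so the levels of Hspa1a and Hspa1b could be too low and are uncertain as separate genes. No match to the letters searched lay in either window, which says only that these exact letters were not there.
Hspa1a, chr17:34972157-34972406, minus strand: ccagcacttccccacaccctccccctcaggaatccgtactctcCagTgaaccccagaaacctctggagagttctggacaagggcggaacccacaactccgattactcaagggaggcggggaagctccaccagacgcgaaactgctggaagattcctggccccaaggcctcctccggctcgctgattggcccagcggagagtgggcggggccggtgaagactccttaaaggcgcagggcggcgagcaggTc
Hspa1b, chr17:34959239-34959488, minus strand: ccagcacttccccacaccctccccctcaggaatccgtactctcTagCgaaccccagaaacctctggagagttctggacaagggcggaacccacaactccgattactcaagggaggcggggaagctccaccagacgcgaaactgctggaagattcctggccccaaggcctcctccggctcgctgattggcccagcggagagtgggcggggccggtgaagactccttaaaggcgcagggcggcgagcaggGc

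After the filters, 12586 control and 13116 ischemia cells remained, with medians of 3839 and 2138.5 UMIs (counted molecules). Levels are given as UMIs of a gene per 1000000 UMIs of the same cells (CPM). Mitochondrial transcripts made up 25.2% of the UMIs in control and 20.1% in ischemia, and 58 cell barcodes occurred among the kept cells of both libraries. Clustering without the members gave 18 clusters, of which 11 could be named from marker genes. The PT-like cluster (698 control and 507 ischemia cells) was led by the solute carriers Slc22a7, Slc22a13 and Slc7a13 of the organic anion and amino acid transporters. Thick ascending limb (TAL)-like, distal convoluted and connecting tubule (DCT-CNT)-like, macrophage-like, thin limb-like and pericyte and fibroblast-like clusters were also named, and unnamed clusters are given by number with their highest marker list. Clusters 1 and 2 were highest for PT markers (Slc34a1 at 2982 and 2073 CPM in control). Cluster 3 was highest for endothelial markers (Plvap at 1799) and cluster 7 for principal cell markers of the collecting duct (Aqp2 at 2256). The rule left them unnamed because no marker of their highest list was among their 10 leading genes, which in cluster 7 included urothelial genes. The largest cluster held 10523 shallow cells (median 837 UMIs), stayed without a name and entered only the counts over 15 clusters unless named below. Within the TAL-like cluster, Slc12a1 was 5206 CPM in control and 497 in ischemia, and the 13 PT markers in the PT-like cluster summed to 12747 and 6597, with 0 of the 13 higher in ischemia.

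Each 3′ library counts molecules, so a gene is compared here with itself across cells and not with other genes. Of the 35 members, 34 reached the minimum of 100 UMIs over both libraries in at least 1 of the 15 clusters that had 50 cells or more per library. The exception was Trib3, a pseudokinase induced by Atf4 and Ddit3, with 60 UMIs in all control cells and 186 in all ischemia cells.

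In the uninjured kidney, most members ranged at most 5-fold between clusters, and a few inducible heat shock genes ranged over 50-fold. These ranges were not computed for all genes, so whether members are more even than other genes is not known. For 23 members, the highest control CPM among the compared clusters was at most 5 times the lowest, and for 4 (Cryab, Hspb1, Hspa1a and Hspa1b) it was over 50 times. Hspb8 and Trib3 are outside both counts, because their lowest control level was 0 and gave no ratio. Inducible Hsp90aa1 and Hsph1 were inside the 5-fold range, and the ER and UPR members Sdf2l1 and Ddit3 were outside it. Cryab ranged from 15.8 in cluster 1 to 7925 in the thin limb-like cells, where it was far above the next level of 623 in podocyte-like cells. Hspb1 ranged from 3.12 in T and NK cell-like cells to 845 in cluster 3, with 762 in thin limb-like cells, and PT-like cells stood near the low end at 4.06. Hspa1a was highest in macrophage-like cells at 431 (95% interval 401 to 463) and thin limb-like cells at 365 (337 to 395), and was 2.64 in cluster 1. Hspb8 was highest in podocyte-like cells at 76.1, where it works with Bag3. At the even end were most ER chaperones, with Canx between 179 and 304 and Hspa5 between 222 and 512, and the mitochondrial chaperonin Hspd1 was highest in PT-like cells at 578.5 and lowest in the endothelial-marker cluster 12 at 125.

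**Figure D1:**
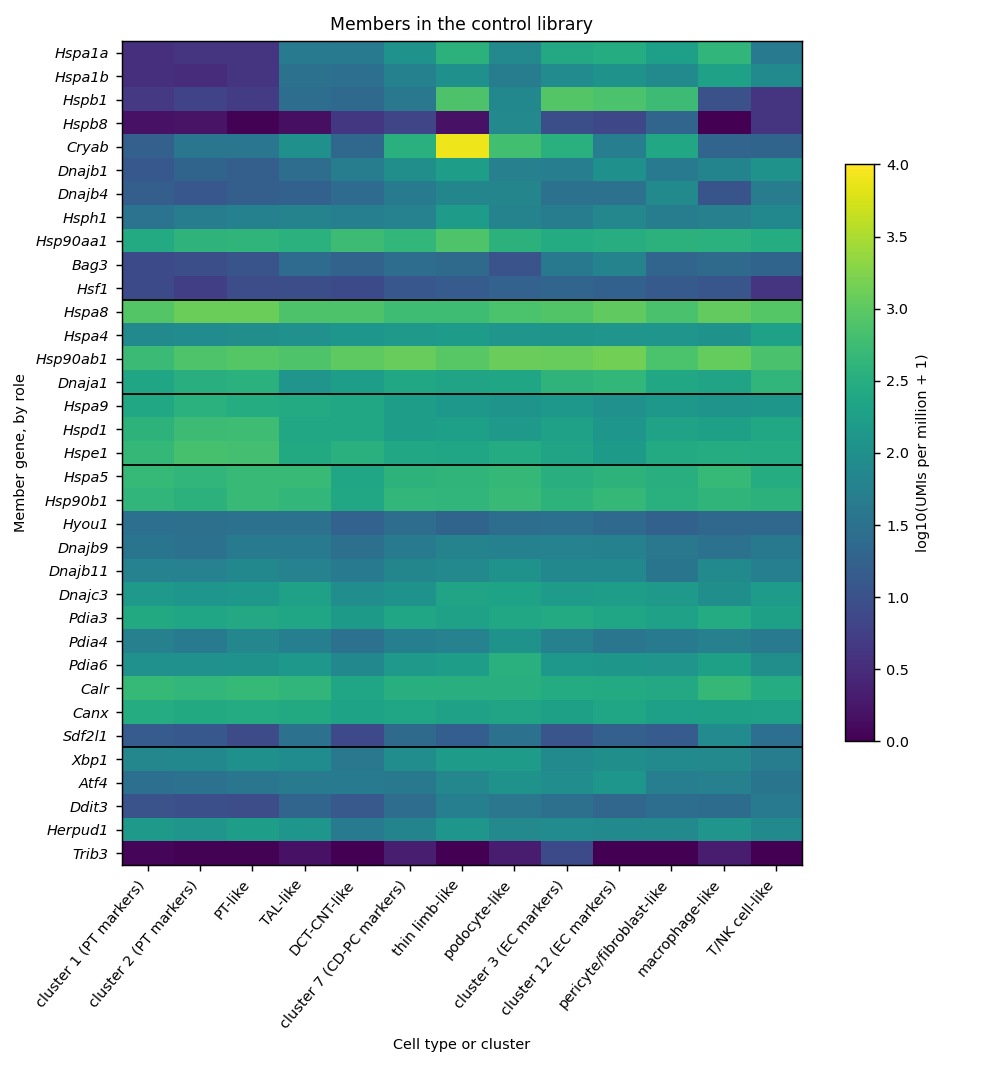
Level of each member (rows, grouped by role) in the control library for 13 cell types or clusters (columns), as log10 of CPM plus 1. Cryab in thin limb-like cells reached 7925 CPM, and the first 3 columns, which carry PT markers, were lowest for Hspa1a and Hspa1b.

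Between the libraries, a member was called higher in ischemia at a ratio of CPM of 1.5 or more and lower at 0.667 or less. Ratios are counted over genes with at least 100 UMIs, so members that were low everywhere are left out. Of 33 members measured in PT-like cells, 9 were higher and 1 was lower, beside 13.8% higher and 8.76% lower of all genes measured there. Cluster 1 had 9 of 34 members higher and 0 lower (all genes 16.0% and 7.12%), and cluster 2 had 6 of 31 higher and 1 lower (all genes 12.4% and 5.69%). The direction was the opposite in TAL-like cells, with 2 of 33 members higher and 9 lower, beside 16.6% and 15.1% of all genes. DCT-CNT-like cells had 2 of 33 higher and 1 lower, both shares below those of all genes (13.6% and 11.7%). The collecting duct markers of cluster 7 went with a low count too, with 2 of 34 higher and 2 lower (all genes 11.1% and 10.2%). The counts were larger again in cluster 3, where 9 of 34 members (26.5%) were higher and 1 was lower, and all genes gave 7.02% and 8.94%. Macrophage-like cells had 4 of 31 higher and 5 lower (all genes 18.2% and 9.12%). Pericyte and fibroblast-like cells had 9 of 29 higher and 2 lower (all genes 10.9% and 5.82%), and thin limb-like cells had 5 of 29 higher and 7 lower (all genes 13.3% and 14.3%).

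**Figure D2:**
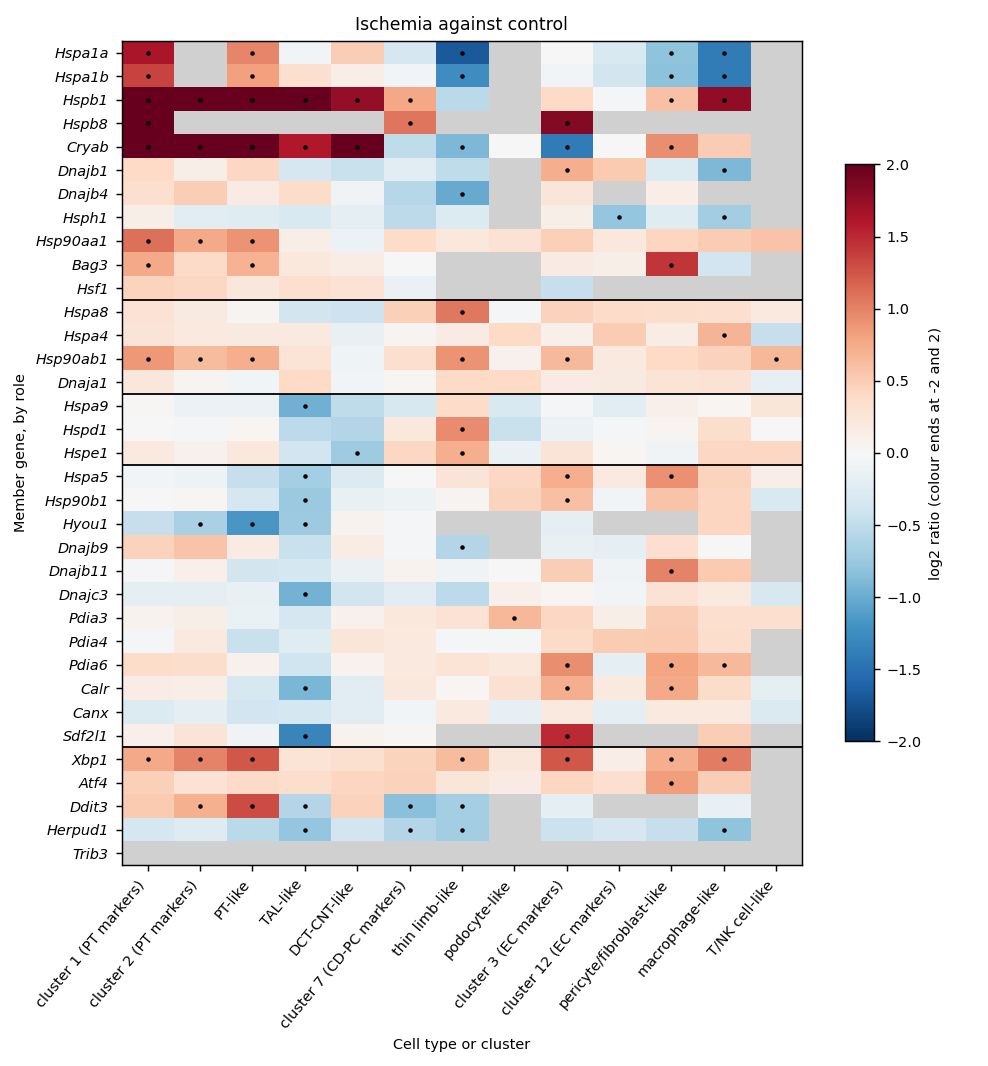
The log2 ratio of ischemia to control for each member (rows) in 13 cell types or clusters (columns), with red for higher and blue for lower in ischemia. Dots mark ratios past 1.5-fold and grey marks genes under 100 UMIs, and Hspb1 and Cryab carry the strongest red in the tubule columns.

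The median log2 ratio of the members was 0.08 against 0.07 for all genes in PT-like cells and 0.27 against 0.12 in cluster 1. It lay below in TAL-like cells, at -0.34 against 0.10, and above in cluster 3, at 0.25 against -0.02, and in macrophage-like cells, at 0.36 against 0.16. Within each cluster the roles differed, and they are described separately.

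**Figure D3:**
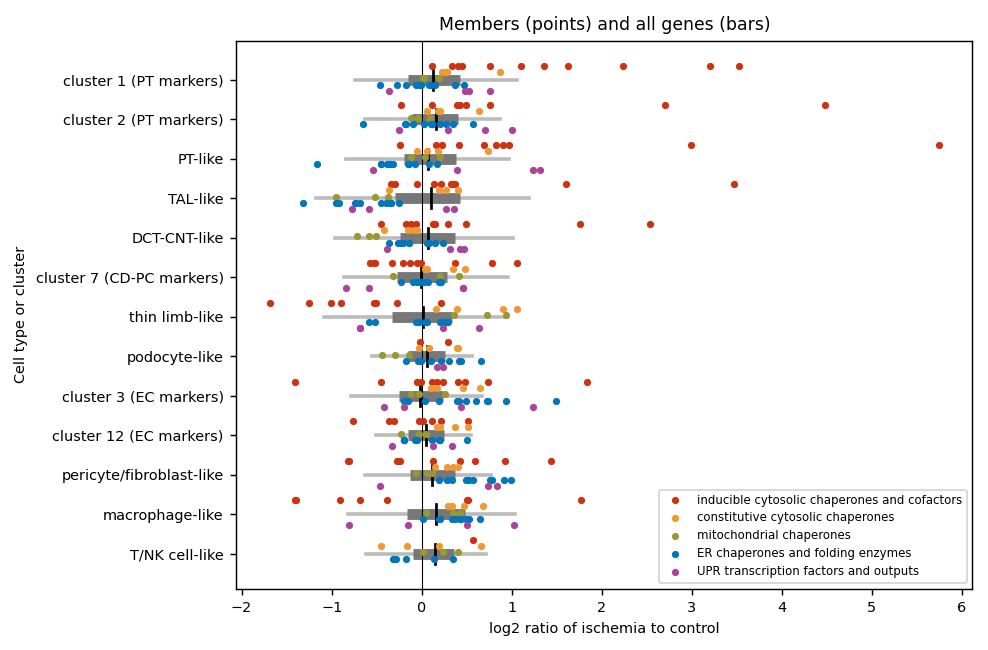
Members (points, coloured by role) and all genes with 100 UMIs or more (thick bar: middle 50%; thin bar: middle 90%; tick: median) on the log2 ratio of ischemia to control, for 13 cell types or clusters. In TAL-like cells the ER chaperones lie left of the median of 0.10, and in cluster 3 most lie right of the median of -0.02.

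The small heat shock genes gave the largest differences. Hspb1 (Hsp27, chr5:135887919-135889563), a small heat shock protein that binds actin, was 4.06 CPM in control and 218 in ischemia in PT-like cells, 53.6 times higher (95% interval 43.2 to 67.3). In TAL-like cells it was 26.9 and 298, a ratio of 11.1 (9.81 to 12.6). In DCT-CNT-like cells it was 22.0 and 74.3, a ratio of 3.38 (2.87 to 4.002). Both PT-marker clusters had the same direction, with 3.60 and 33.2 in cluster 1 (ratio 9.22) and 5.33 and 118 in cluster 2 (ratio 22.2). In these tubule clusters the gene was low in control, and its ischemia levels were below those of cluster 3, which had 845 CPM in control and 1115 in ischemia. Thin limb-like cells, with 762 and 526 CPM, were high in both libraries. Lymphocytes, which should lack PT transcripts, carried PT markers summing to 2696 and 1176 CPM in T and NK cell-like cells, and their Hspb1 serves as a background level. T and NK cell-like cells had 3.12 (1 UMI) in control and 44.8 (20 UMIs) in ischemia, and B cell-like cells had 2 UMIs and 1 UMI. The 33.2 CPM of cluster 1 in ischemia were not above the 44.8 of T and NK cell-like cells. The injury marker Havcr1, a PT gene, was also higher there in ischemia, at 6.24 and 119 CPM. In TAL-like cells Havcr1 was 0.582 and 34.4, and the 13 PT markers summed to 937 and 357, with 0 of the 13 higher in ischemia.

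Cryab (alpha B-crystallin, chr9:50751325-50756636), which forms mixed complexes with Hspb1, was 35.9 CPM in control and 284 in ischemia in PT-like cells, a ratio of 7.92 (7.34 to 8.56). It was 101 and 307 in TAL-like cells, a ratio of 3.03 (2.83 to 3.25), and 21.0 and 122 in DCT-CNT-like cells, a ratio of 5.81 (4.96 to 6.84). In clusters 1 and 2 it was 11.5 and 6.53 times higher. Where the gene was highest in control it was lower in ischemia, at 7925 and 4260 CPM in thin limb-like cells, a ratio of 0.538 (0.524 to 0.551). Havcr1 was 0.590 and 298 in the thin limb-like cluster, its marker Sptssb was 32.5 in control and 0 in ischemia, and the part of these differences was not tested. Cryab was also lower in cluster 3, at 348 and 132, a ratio of 0.378 (0.347 to 0.412). That difference rested on few cells, as 8 of the 826 control cells of cluster 3 held 65.8% of its Cryab UMIs, and without the top 1% of cells in each library the ratio was 0.719. Hspb8, the partner of Bag3, was 8.16 and 29.2 in cluster 3 (ratio 3.58) and 5.89 and 12.3 in cluster 7 (ratio 2.09). The cluster 7 ratio was 3.97 under the marker gate and 1.47 when the CPM of single cells was averaged.

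The size of these ratios depended on how the cells were grouped. The Hspb1 ratio of PT-like cells was 25.4 with clusters 1, 2 and 5 joined and 26.1 in cells gated on marker UMIs, and that of TAL-like cells was 4.22 with mitochondrial UMIs limited to 25% and 19.0 without the top 1% of cells. The same mitochondrial limit gave 1.62 for Hspb1 in DCT-CNT-like and 1.91 for Cryab in TAL-like cells, and the marker gate gave 2.50 for Cryab in DCT-CNT-like cells. In macrophage-like cells Hspb1 was 8.93 and 30.4, a ratio of 3.41, but 5 of 579 ischemia cells held 43.0% of its UMIs and the marker gate gave a ratio of 0.803. In cluster 7, Hspb1 was 38.6 and 66.1 (ratio 1.71), and the ratio was 1.19 under the marker gate.

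Within the PT clusters, the small heat shock UMIs were unevenly spread over cells. In ischemia, the top 1% of cells held 25.1% of the Hspb1 UMIs of PT-like cells, 53.2% in cluster 1 and 46.1% in cluster 2. Cells of the ischemia library with 2 or more Havcr1 UMIs, a limit chosen after its values were seen, had 241 CPM of Hspb1 and 313 of Cryab in the PT-like cluster (437 cells). Those with 0 Havcr1 UMIs had 8.30 and 16.6 (39 cells). In cluster 2 the same groups had 204 and 24.7 CPM of Hspb1, and 403 and 78.5 of Cryab. In cluster 1 they had 48.9 and 11.7 of Hspb1, and 285 and 34.1 of Cryab. Ischemia cells with 2 or more Havcr1 UMIs were also deeper, with medians of 10927 against 6290.5 UMIs in cluster 2, and the part of depth in this difference was not tested. Few control cells had 2 or more Havcr1 UMIs, with 25 in the PT-like cluster, 20 in cluster 1 and 10 in cluster 2. Their Hspb1 was 17.4, 59.2 and 87.6 CPM, against 3.27, 2.64 and 4.36 in control cells with 0.

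At equal depth, with each cell thinned to 1000 UMIs and shallower cells left out, 0.143% of control and 12.2% of ischemia PT-like cells had an Hspb1 UMI. In TAL-like cells the shares were 2.35% and 18.8%. T and NK cell-like cells had 0 of 99 control cells, with an exact upper limit of 3.66%, and 6.61% of 121 ischemia cells. The ischemia shares were 3.41% in cluster 1, 6.28% in cluster 2, 4.12% in DCT-CNT-like, 5.50% in cluster 7 and 1.41% in macrophage-like cells. None was above that level (interval 2.90% to 12.6%), so this measure did not set them apart from background. The 12.2% of PT-like cells was above it but lay inside this interval, and the 18.8% of TAL-like cells lay above the interval. By the CPM given above, however, ischemia Hspb1 in cluster 2, DCT-CNT-like cells and cluster 7 was above that of T and NK cell-like cells. In cluster 1 and macrophage-like cells it was not. Summed PT markers in ischemia were 1176 CPM in T and NK cell-like cells, 212 in DCT-CNT-like cells and 223 in cluster 7. For Cryab, the shares were 1.86% and 12.2% in PT-like cells and 5.88% and 19.4% in TAL-like cells. Lymphocyte clusters, which should lack it, had 2.02% and 6.61% (T and NK cell-like) and 2.50% and 12.5% (5 of 40 ischemia B cell-like cells, interval 4.19% to 26.8%). The Cryab share of ischemia PT-like cells was therefore not above the lymphocyte background by this measure. Its CPM of 284 in these cells was, however, above the 52.8 of B cell-like cells. The ischemia shares of 8.824% in DCT-CNT-like cells, 6.905% in cluster 1 and 12.04% in cluster 2 were also below the 12.5%. The 19.4% of TAL-like cells was above it but lay inside the B cell-like interval. Without thinning, the Cryab shares of PT-like cells were 22.6% and 59.2%, from cells with medians of 30374.5 and 44197 UMIs, where T and NK cell-like cells had medians of 2986.5 and 3265.

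**Figure D4:**
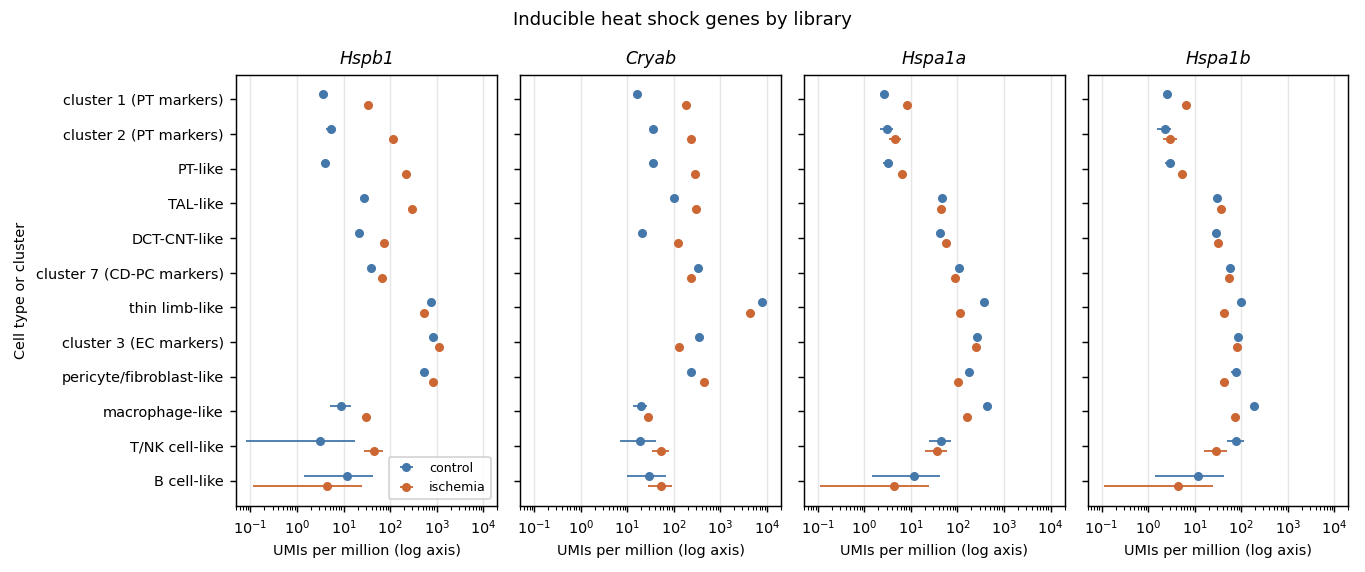
CPM (log axis) of 4 inducible heat shock genes in the control (blue) and ischemia (orange) libraries, by cell type or cluster, with exact 95% Poisson intervals. Hspb1 and Cryab were higher in ischemia in the PT, TAL and DCT-CNT rows, whereas Hspa1a and Hspa1b were lower in the macrophage, thin limb and pericyte and fibroblast rows.

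The stress-inducible Hsp70 genes were lower in ischemia in the macrophage-like, thin limb-like and pericyte and fibroblast-like clusters and higher in 2 PT-marker clusters. In macrophage-like cells, where Hspa1a (chr17:34969190-34972156) was highest in control, it was 431 CPM in control and 163 in ischemia, a ratio of 0.378 (0.343 to 0.417). Its copy Hspa1b (chr17:34956436-34959238) was 193 and 73.6, a ratio of 0.381 (0.329 to 0.442). Both were also lower in thin limb-like cells, with ratios of 0.311 and 0.421, and in pericyte and fibroblast-like cells, with 0.573 and 0.567. In PT-like cells both were higher but stayed at a few CPM, at 3.19 and 6.27 for Hspa1a (ratio 1.97, 1.45 to 2.68) and 2.95 and 5.23 for Hspa1b (ratio 1.77, 1.29 to 2.47). Their highest ratios were in cluster 1, with Hspa1a at 2.64 and 8.17 (ratio 3.09, 2.45 to 3.93) and Hspa1b at 2.56 and 6.54 (ratio 2.56). The Hspa1b ratio of PT-like cells was 1.42 when the CPM of single cells was averaged. With cells thinned to 1000 UMIs, 0.430% of control and 0.592% of ischemia PT-like cells had an Hspa1a UMI. In cluster 1 the shares were 0.405% and 1.62%. The control and ischemia intervals overlapped in PT-like cells and did not in cluster 1. For Hspa1b the PT-like shares were 0.143% and 0.986%, also with overlapping intervals. T and NK cell-like cells had 4.04% and 1.65% for Hspa1a, and 6.06% and 2.48% for Hspa1b. Their shares were above those of PT-like cells already in control, so they cannot serve as a background for these genes. The thinned Hspa1a shares were 28.0% in control and 12.2% in ischemia in macrophage-like cells, and 28.7% and 13.0% in thin limb-like cells. In pericyte and fibroblast-like cells they were 10.6% and 10.3%, so the lower CPM there did not appear in this measure. In cluster 3, which had 258 and 256 CPM of Hspa1a, and in TAL-like cells, which had 45.9 and 44.1, the gene was within 1.5-fold.

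The macrophage-like cluster was not the same mix of cells in both libraries, since C1qa was 3090 CPM in control and 1895 in ischemia and Lyz2 was 2282 and 5908. The cells were also divided at 1000 CPM of C1q, a limit chosen after the data were seen. Hspa1a was 516 in control and 231 in ischemia in cells above the limit (218 and 303 cells), and 221 and 86.6 below it (70 and 276 cells). Hspa1a is also known to respond to the warm enzymes that free the cells. The 14 immediate early genes known to respond to dissociation summed to 5902 CPM in control and 5749 in ischemia in macrophage-like cells, with 6 of the 14 higher in ischemia. In PT-like cells they summed to 672 and 1193, with 11 of the 14 higher, in thin limb-like cells to 13353 and 11963 (5 of 14), and in cluster 3 to 7395 and 8799 (13 of 14). Their part in the heat shock values was not tested.

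Other inducible members differed by cell type. Hsp90aa1, the inducible cytosolic Hsp90, was 420 and 784 CPM in PT-like cells (ratio 1.87, 1.82 to 1.92), and 2.15 and 1.69 times higher in clusters 1 and 2, but within 1.5-fold in DCT-CNT-like and TAL-like cells. Bag3, which links Hsp70 to selective autophagy, was 1.62 times higher in PT-like cells and 1.70 times in cluster 1, and 19.2 and 51.7 CPM in pericyte and fibroblast-like cells (ratio 2.69, 1.65 to 4.61). Averaging single cells gave 1.44 for Bag3 in PT-like cells. Dnajb1, the J-domain partner of inducible Hsp70, was 49.9 and 82.8 in cluster 3 (ratio 1.66) and 62.5 and 33.4 in macrophage-like cells (ratio 0.534), and averaging single cells gave 1.41 for cluster 3. Hsph1, a nucleotide exchange factor of Hsp70, was 53.6 and 33.2 in macrophage-like cells (ratio 0.620) and had a ratio below 1 in 11 of the 13 clusters where it was measured. Dnajb4 was lower in thin limb-like cells (ratio 0.497). Hsf1 itself, whose activity is set after translation, was within 1.5-fold in all 7 clusters where it was measured (ratios 0.729 to 1.37).

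Among the constitutive chaperones, Hsp90ab1 was higher in ischemia in most cells. It was 871 and 1446 CPM in PT-like cells (ratio 1.66, 1.63 to 1.69), 1170 and 1837 in cluster 3 (ratio 1.57, 1.52 to 1.62), and 1.83 times higher in cluster 1. The cluster 3 ratio was 1.48 when the CPM of single cells was averaged. Its ratio was above 1 in 14 of 15 clusters and past 1.5-fold in 7. Hspa4, another exchange factor of Hsp70, was 111 and 178 in macrophage-like cells (ratio 1.60, 1.37 to 1.87) and otherwise within 1.5-fold. Over the median ratio of all genes its ratio was 1.43. Hspa8, the constitutive Hsp70, was past 1.5-fold only in thin limb-like cells among the 15 clusters, at 568 and 1180 (ratio 2.08). Dnaja1 was within 1.5-fold in all 15.

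Of the 3 mitochondrial chaperones, 1 was lower in TAL-like and 1 in DCT-CNT-like cells (all genes 15.1% and 11.7% lower). In thin limb-like cells 2 were higher (all genes 13.3%), and 0 were past 1.5-fold in PT-like cells and cluster 7. Hspa9 (mortalin), which pulls proteins into mitochondria, was 276 CPM in control and 142 in ischemia in TAL-like cells, a ratio of 0.515 (0.485 to 0.547). The chaperonin pair that shares a promoter region had ratios of 0.699 and 0.769 there, with Hspd1 at 242 and 170 and Hspe1 at 270 and 208, both within 1.5-fold. In DCT-CNT-like cells Hspe1 was 348 and 212, a ratio of 0.610 (0.574 to 0.648), and the marker gate gave 0.780. Hspd1 was 242 and 161 there, just inside the limit. In PT-like cells the 3 genes had ratios between 0.924 and 1.15. Thin limb-like cells went the other way, with Hspd1 at 179 and 343 (ratio 1.92) and Hspe1 at 234 and 386 (ratio 1.65).

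Some ER chaperones were lower in ischemia in TAL-like cells, and some were higher in cluster 3. Of the 12 ER chaperones and folding enzymes, 6 were lower and 0 higher in TAL-like cells (all genes 15.1% and 16.6%), with a median log2 ratio of -0.57 against 0.10 for all genes. In cluster 3, 5 were higher, 0 lower and 7 within 1.5-fold (all genes 7.02% higher and 8.94% lower), with a median of 0.45 against -0.02. Neither direction was particular to these cells. Cluster 4, whose highest marker list was also that of the TAL, had a median of -0.44 against 0.10, and 1 of the 12 had any higher level in ischemia. In macrophage-like cells the median was 0.40 against 0.16, and 12 of the 12 had a higher level, 1 of them past 1.5-fold (all genes 18.2%). The median of all genes was above 0 in both clusters, so most of all genes had a higher level there. The members shared that direction in macrophage-like cells and went the other way in cluster 4. The exact shares of all genes were not counted. Hspa5 (BiP), the most used marker of ER stress, was 496 CPM in control and 308 in ischemia in TAL-like cells (ratio 0.622, 0.596 to 0.649) and 335 and 557 in cluster 3 (ratio 1.66, 1.56 to 1.77). Calr, the lectin chaperone of glycoproteins, was 432 and 229 in TAL-like cells (ratio 0.530) and 292 and 485 in cluster 3 (ratio 1.66). Hsp90b1 was 447 and 268 in TAL-like cells (ratio 0.599) and 382 and 581 in cluster 3 (ratio 1.52). Sdf2l1, a partner of BiP and one of the most inducible UPR genes, was 29.6 and 11.9 in TAL-like cells (ratio 0.401) and 10.2 and 28.6 in cluster 3 (ratio 2.80, 2.01 to 3.97). For these 4 genes the intervals of the 2 cell populations lay on opposite sides of 1. Secreted and membrane proteins of the TAL were also lower in its cells, with Umod at 12963 and 8318 CPM and Egf at 2796 and 57.4, and their part in the ER values was not tested.

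Pdia6, the isomerase that also acts on Ire1, was 134 and 256 in cluster 3 (ratio 1.91, 1.74 to 2.11) and 188 and 294 in macrophage-like cells (ratio 1.56). In macrophage-like cells its ratio was 1.42 under the marker gate and 1.40 over the median ratio of all genes. Dnajc3, a J-domain cochaperone of BiP, was 195 and 101 in TAL-like cells (ratio 0.517), and Hyou1, its exchange factor, 31.7 and 19.1 (ratio 0.602). The 6 members with an ERSE, shown above, were Hspa5, Hsp90b1, Calr, Canx, Dnajc3 and Pdia6. In cluster 3 their ratios ranged from 1.03 for Dnajc3 to 1.91 for Pdia6, and in TAL-like cells from 0.517 to 0.784. The other 6 ER members ranged from 0.873 to 2.80 and from 0.401 to 0.842, so the ranges overlapped. One of those, Hyou1, has no window here and is not known to lack the letters.

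PT-like cells had few members of this group past 1.5-fold, but the group lay below all genes, with a median log2 ratio of -0.33 against 0.07. The 12 genes summed to 2486 CPM in control and 2006 in ischemia. Most of all genes had a higher level in ischemia, as their median was above 0, whereas 2 of the 12 members did. Past 1.5-fold, 1 was lower and 0 were higher (all genes 8.76% and 13.8%). The lower one was Hyou1, at 30.9 and 13.8 CPM (ratio 0.446, 0.387 to 0.512). Hspa5 was 512 and 374, inside 1.5-fold with a ratio of 0.730. In clusters 1 and 2 the Hspa5 ratios were 0.958 and 0.935. The median log2 ratio of the group was -0.01 against 0.12 for all genes in cluster 1, and 0.11 against 0.15 in cluster 2. Its summed CPM was 2380.7 in control and 2390.5 in ischemia in cluster 1, and 2141.7 and 2176.5 in cluster 2. The lower sum of PT-like cells was thus not seen in these PT-marker clusters. Pericyte and fibroblast-like cells resembled cluster 3, with Hspa5 at 316 and 595 (ratio 1.89), Dnajb11 at 34.5 and 68.6 (ratio 1.99), Calr 1.70 and Pdia6 1.72 times higher. Pdia4 and Canx, the second lectin chaperone, were never past 1.5-fold in the 14 and 15 clusters where they were measured. Among the 13 clusters of Dnajb9, an ER J-domain protein, it was lower in thin limb-like cells (ratio 0.665) and higher in the shallow cluster (ratio 1.55). Pdia3 was past 1.5-fold in podocyte-like cells alone among its 15 (243 and 384).

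**Figure D5:**
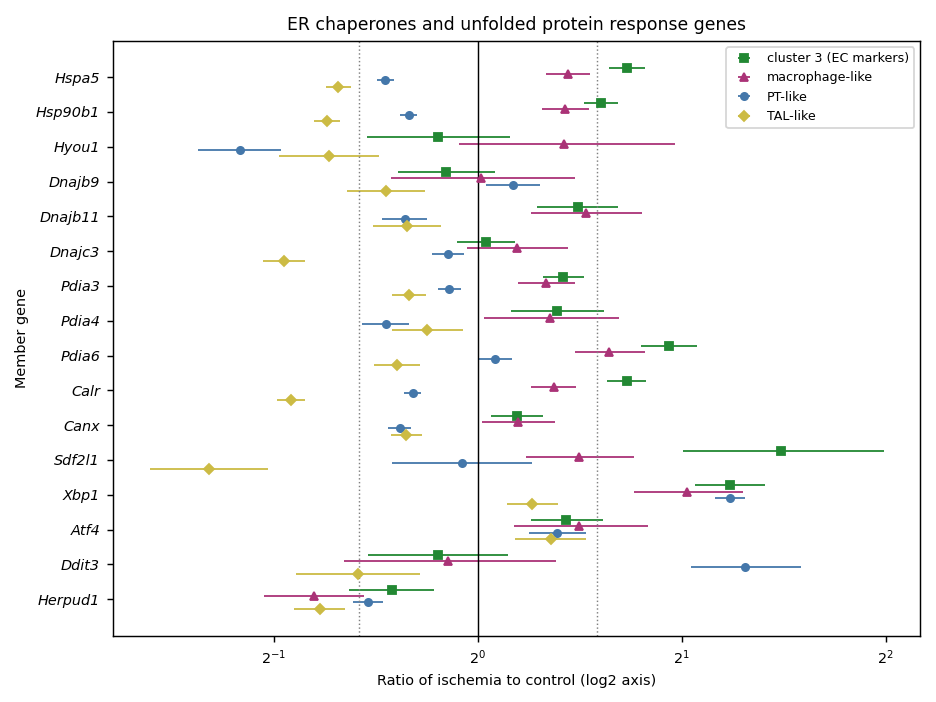
Ratio of ischemia to control (log2 axis, exact 95% intervals, dotted lines at 1.5-fold) of the ER chaperones and UPR genes in cluster 3, macrophage-like, PT-like and TAL-like cells. Hspa5, Hsp90b1, Calr and Sdf2l1 lie right of 1 in cluster 3 and left of 1 in TAL-like cells, and Xbp1 lies right of 1 in all 4.

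Of the UPR regulators, Xbp1 (chr11:5520659-5525893), the target of Ire1, was above 1 in all 14 clusters where it was measured and past 1.5-fold in 8. It was 100 CPM in control and 237 in ischemia in PT-like cells (ratio 2.36, 2.24 to 2.48), 80.7 and 190 in cluster 3 (ratio 2.35, 2.09 to 2.66), and 75.9 and 155 in macrophage-like cells (ratio 2.04, 1.70 to 2.46). Its ratios were 1.20 in TAL-like and 1.24 in DCT-CNT-like cells, within 1.5-fold. These UMIs do not separate spliced from unspliced Xbp1. Atf4, which is mainly set by translation, was above 1 in all 14 of its clusters, with ratios of 1.12 to 1.79, and past 1.5-fold in pericyte and fibroblast-like cells alone (49.9 and 89.2).

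Ddit3 (CHOP, chr10:127290774-127296288), the factor of the Perk branch that is linked to cell death, was 7.79 and 19.3 CPM in PT-like cells, a ratio of 2.48 (2.06 to 2.998). It was lower in cluster 7, at 25.9 and 14.5 (ratio 0.560, 0.456 to 0.687), and in TAL-like cells, at 19.5 and 13.0 (ratio 0.665, 0.538 to 0.822), where the marker gate gave 0.718, no integration 0.673 and the 25% mitochondrial limit 0.408. The cluster 7 ratio was 0.687 when the CPM of single cells was averaged and 0.365 under the marker gate. Ddit3 was also higher in cluster 2 (ratio 1.63), where the ratio was 0.976 without integration of the libraries. With cells thinned to 1000 UMIs, 1.15% of control and 1.78% of ischemia PT-like cells had a Ddit3 UMI. The intervals of these shares overlapped. T and NK cell-like cells had 2.02% and 2.48%. Their control level of 43.7 CPM was the second highest of the compared clusters, so they cannot serve as a background for this gene. In ischemia, 5 of the 507 PT-like cells held 20.7% of the Ddit3 UMIs. The files hold a second identifier under the symbol Ddit3 at an overlapping position (chr10:127290829-127293753) with 0 UMIs, so reads that fit both could be missing from these counts. Herpud1, which helps to remove proteins from the ER, had a ratio below 1 in all 13 clusters where it was measured (0.572 to 0.838) and was lower past 1.5-fold in 5. It was 124 and 72.2 in TAL-like cells (ratio 0.584), 122 and 70.0 in macrophage-like cells (ratio 0.572), 62.9 and 41.9 in cluster 7 (ratio 0.667) and 168 and 115 in PT-like cells (ratio 0.688). The cluster 7 ratio was within 1.5-fold at a resolution of 0.6 (0.722), over the median ratio (0.672) and as a mean of single cells (0.796). Xbp1 and Herpud1, both UPR targets, were thus on opposite sides of 1 in every cluster where both were measured.

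Other genes of these pathways, 78 genes in 4 lists, were compared in the same way. Among the 14 ATF4 targets, 8 of 11 measured in PT-like cells were higher and 0 lower, with a median log2 ratio of 1.13, and 8 of 12 were higher and 1 lower in TAL-like cells, with a median of 1.04. The counts were 7 and 0 of 10 in DCT-CNT-like cells, 4 and 1 of 12 in cluster 7, 3 and 0 of 9 in cluster 3 and 5 and 1 of 10 in macrophage-like cells. All genes gave 13.8% higher in PT-like, 16.6% in TAL-like, 13.6% in DCT-CNT-like and 18.2% in macrophage-like cells, 11.1% in cluster 7 and 7.02% in cluster 3. Nupr1, a stress-induced chromatin regulator, was 20.0 and 214 CPM in TAL-like cells (ratio 10.7), 6.42 and 87.3 in DCT-CNT-like cells (ratio 13.6), and 3.93 times higher in macrophage-like cells. Eif4ebp1, a brake on cap-dependent translation, was 10.0 and 68.9 in PT-like cells (ratio 6.88) and at least 1.5-fold higher in the other 5 main clusters. Asns, asparagine synthetase, was 1.06 and 8.34 in PT-like cells (ratio 7.84), and Cebpb was 33.4 and 98.2 there (ratio 2.94) and 243 and 1043 in macrophage-like cells (ratio 4.29). The ATF4 targets of this list were thus mostly higher in TAL-like cells, where 6 of the 12 ER chaperones were lower. The member Ddit3, also a target of Atf4 but not in this list, was lower there (ratio 0.665).

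The 28 other ER genes (stress sensors, folding and ERAD genes) gave 0 higher and 0 lower of 27 in PT-like cells and 2 and 1 of 27 in TAL-like cells, and 6 and 0 of 25 in cluster 3 and 7 and 0 of 24 in macrophage-like cells. For the lists in this paragraph, all genes gave 13.8% higher and 8.76% lower in PT-like and 16.6% and 15.1% in TAL-like cells. They gave 7.02% and 8.94% in cluster 3 and 18.2% and 9.12% in macrophage-like cells. The 28 other cytosolic chaperones gave 4 and 0 of 27 in PT-like cells, 1 and 1 of 26 in TAL-like cells and 8 and 0 of 22 in macrophage-like cells. The 4 of 27 in PT-like cells were near the 13.8% share of all genes. Hspb6, a further small heat shock gene, was at least 2.25 times higher in PT-like cells and in the 2 named distal clusters (TAL-like, DCT-CNT-like), at 4.21 and 9.47 CPM in the first. Of the 8 other mitochondrial chaperones and proteases, 1 was higher in PT-like cells and 2 were lower in TAL-like cells.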

How the data were processed

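Single cells of 1 control and 1 ischemia kidney were read with 3′ droplet libraries (v2 chemistry). Per the submitters' processing notes, Cell Ranger 7.0.0 and the mm10 build were used, and the authors deposited unnormalized UMI counts per gene and barcode for each library. No column was left without a sample. Depth was a total of 142686238 and 142959737 UMIs.

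A cell was kept if it had at most 55% mitochondrial UMIs, between 500 and 150000 UMIs and 200 genes or more. In Seurat 5.3.0 (R 4.3.3), counts were log-normalized to 10000, 2000 variable genes were taken without 127 genes of the member, related and dissociation lists, the libraries were integrated, and 30 principal components were clustered at a resolution of 0.3 (seed 42). A cluster took the name of its highest marker list if at least 3 of those markers had 10 UMIs or more, and if the list had 1 or more of the 10 leading genes and more than any other list. The fixed design listed endothelial and principal cells among its main types. Clusters 3 and 7 are given in their place because this rule left them unnamed. Scrublet (scanpy 1.11.5) called 0 doublets and so had not worked, and no doublet was removed.

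UMIs of a gene were summed over the cells of a cluster and divided by their total (CPM). Ratios have exact 95% binomial intervals, levels exact Poisson intervals and shares Clopper-Pearson intervals. With 1 library a condition no test was run. The calculation was tested on simulated Poisson counts with known 2-fold changes. The intervals rest on the same counting model, so this checked the arithmetic and not the spread between cells or libraries. All members could be named, with full values for those past 1.5-fold at 100 UMIs or more in the main clusters, up to 8 a direction. Related genes were named at 2-fold or more in 3 of the 6 main clusters. Members and lists were chosen with earlier results of these data known. Versions were numpy 2.4.6, pandas 2.3.3, scipy 1.17.1 and matplotlib 3.10.9 under Python 3.11.15.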

Additional observations from a re-analysis of the deposited data

Results flagged for a closer look

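For 9 members, 1 cell population was higher in the ischemia library and another lower, both past 1.5-fold. With 1 library a condition, none of these differences between populations was tested. Hspa1a had a ratio of ischemia to control of 1.97 in PT-like and 0.378 in macrophage-like cells, and Hspa1b of 1.77 and 0.381 in the same populations. In PT-like cells both genes stayed at a few CPM, and at equal depth the intervals of their control and ischemia shares overlapped. Cryab had 7.92 in PT-like cells and 0.378 in cluster 3, where few cells held most UMIs. Ddit3 had 2.48 in PT-like cells and 0.560 in cluster 7, where the mean of single-cell CPM gave 0.687, within 1.5-fold. At equal depth, the intervals of the control and ischemia Ddit3 shares of PT-like cells overlapped. Dnajb1 had 1.66 in cluster 3 and 0.534 in macrophage-like cells. The other 4 are ER chaperones that were higher in cluster 3 and lower in TAL-like cells. Hspa5 had 1.66 and 0.622, Hsp90b1 had 1.52 and 0.599, Calr had 1.66 and 0.530, and Sdf2l1 had 2.80 and 0.401.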

How the results depend on the processing

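No paired analysis was possible because each condition was 1 library. Leaving out a replicate was not possible for the same reason. Of 677 recomputed values of the 63 called ratios, 674 stayed on their side of 1. The 3 that did not were Hspb1 in macrophage-like cells (0.803 under a gate on marker UMIs), and Hyou1 (1.18) and Ddit3 (0.976) in cluster 2 without integration of the libraries. Staying on 1 side is a weaker check than keeping the 1.5-fold call. With the mean of single-cell CPM, 21 of 63 values fell outside the interval of the main ratio and 42 inside. With mitochondrial UMIs limited to 25%, 19 of 53 fell outside and 34 inside. The causes of the changes below were not tested, beyond what a higher limit does by itself.

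The counts of members past the limit shifted by more than 1.5 times as follows. The shares of all genes were not recomputed under these settings, so it is not known how far all genes shifted with the members. A limit of 2-fold left 4 higher in PT-like cells, 1 lower in TAL-like, 0 lower in DCT-CNT-like, 1 higher and 0 lower in cluster 7, 3 higher in cluster 3 and 2 in each direction in macrophage-like cells. With mitochondrial UMIs limited to 25%, 15 members were lower in TAL-like cells and 4 in DCT-CNT-like cells, cluster 7 had 1 higher and 5 lower, and no PT-like cluster was matched. The marker gate gave 0 lower in DCT-CNT-like cells, 5 higher and 8 lower in cluster 7, 2 lower in cluster 3 and 2 higher in macrophage-like cells. A total without mitochondrial UMIs gave 2 lower in PT-like and DCT-CNT-like cells and 5 in cluster 7. Ratios over the median ratio of all genes gave 2 lower in PT-like and DCT-CNT-like cells, 1 lower in cluster 7 and 2 higher in macrophage-like cells. The mean of single-cell CPM gave 2 lower in DCT-CNT-like cells and 1 in each direction in cluster 7. Cells of 1000 UMIs or more, no integration (where no PT-like cluster was matched) and a resolution of 0.6 each gave 2 lower in DCT-CNT-like cells, and the last gave 1 lower in cluster 7. Without the top 1% of cells, 2 were lower in DCT-CNT-like cells and 0 in cluster 3. A minimum of 20 UMIs a gene gave 4 higher in TAL-like cells, and one of 500 gave 1 in each direction in cluster 7 and 3 lower in macrophage-like cells. Leaving out the 5% of cells with the highest Scrublet score, and joining the PT-marker clusters, were chosen after seeing the data. The Scrublet alternative itself was void, with 0 cells called.

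In cluster 2 without integration, Hspb1 was 5.20, Cryab 1.99 and Xbp1 1.39 times higher. In cluster 1 the Hspb1 ratio reached 26.0 without integration and Hspb8 29.2 without the top 1% of cells.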

Other observations

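Neutrophil-like cells were 33 in control and 209 in ischemia, too few in control for a comparison, and B cell-like cells were 40 and 40. Hspa1a over all kept cells was 45.5 CPM in control and 46.8 in ischemia, a ratio of 1.03 (0.991 to 1.07), although single clusters differed in both directions. Trib3 over all kept cells was 0.481 and 1.45 CPM, a ratio of 3.002 (2.23 to 4.09).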
